A study of Mus musculus with 12 samples.

Results

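The 10 genes described here are the regulators of mitochondrial biogenesis around PGC-1 and the PPARs. They comprise the coactivators Ppargc1a and Ppargc1b, the factors Esrra, Nrf1, Gabpa and Tfam, and the nuclear receptors Ppara, Ppard, Pparg and Rxra. They were taken by gene symbol from the count tables, which list 19564 genes in all, and all 10 were found in both tables, of 17811 genes for the dim cells and 17521 for the bright cells. RNA-seq was done on 12 libraries of glomerular endothelial cells (GEC) from C57BL/6 mice aged 4 months, in 4 groups of 3: WT-dim, WT-bright, AS-dim and AS-bright. WT mice were wild type at Col4a5. AS mice, a model of Alport syndrome, carried the targeted allele Col4a5tm1Yseg of Col4a5, the X-linked gene of the type IV collagen alpha-5 chain (genotype Col4a5 -/- in the labels). All mice, WT included, carried TekCre and a tdTomato (tdT) reporter, so that Cre under the promoter of Tek, the angiopoietin receptor of endothelium, switched the red label on. Cells positive for tdT were sorted from sieved and digested glomeruli into a dim and a bright fraction, and the bright and the dim library with the same number within a genotype came from the same mouse.

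PGC-1 alpha (Ppargc1a) and PGC-1 beta (Ppargc1b) do not bind DNA themselves. They dock on transcription factors and draw in the machinery that opens chromatin and starts transcription. Estrogen-related receptor alpha (Esrra) binds the genes of the respiratory chain and citrate cycle together with PGC-1, while nuclear respiratory factor 1 (Nrf1) and GA-binding protein alpha (Gabpa, also called NRF-2) bind the promoters of respiratory subunits and of Tfam, whose protein packs and transcribes the mitochondrial DNA. The PPARs are fatty acid receptors that bind DNA as heterodimers with the retinoid X receptors such as Rxra: PPAR alpha and PPAR delta drive fatty acid oxidation and PPAR gamma drives lipid storage. In the kidney, PGC-1 alpha and PPAR alpha are best known from the proximal tubule, which burns fatty acids.

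The sequence just upstream of the annotated start is shown for the 6 genes whose values carry the comparisons below, since the motifs of the family's own factors can be read in it. Each line gives 120 bases on the gene's strand, 5′ to 3′, ending at the base before the start in RefSeq (build GRCm38.p6). Capitals mark a match to one of 4 motifs, searched on both strands: the NRF1 core GCATGCGC, the GABP (ETS) core CCGGAAGT, the ERR core AAGGTCA and the cAMP response element TGACGTCA. For Nrf1 and Rxra, which have more than one annotated start, the first is shown for Nrf1 and the second, which alone holds a match, for Rxra.
Ppargc1a (chr5:51567726-51567845, minus strand): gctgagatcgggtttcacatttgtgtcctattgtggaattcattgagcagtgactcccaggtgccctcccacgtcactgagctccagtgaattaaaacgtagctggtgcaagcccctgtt
Esrra (chr19:6921809-6921928, minus strand): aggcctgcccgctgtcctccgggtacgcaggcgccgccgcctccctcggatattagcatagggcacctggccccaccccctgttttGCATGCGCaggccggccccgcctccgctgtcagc
Nrf1 (chr6:30047868-30047987, plus strand): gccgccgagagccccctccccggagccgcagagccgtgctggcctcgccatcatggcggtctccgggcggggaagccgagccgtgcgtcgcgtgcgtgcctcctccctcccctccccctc
Tfam (chr10:71238045-71238164, minus strand): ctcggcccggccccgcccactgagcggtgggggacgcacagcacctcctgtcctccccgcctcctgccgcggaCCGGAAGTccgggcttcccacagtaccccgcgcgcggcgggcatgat
Ppara (chr15:85735656-85735775, plus strand): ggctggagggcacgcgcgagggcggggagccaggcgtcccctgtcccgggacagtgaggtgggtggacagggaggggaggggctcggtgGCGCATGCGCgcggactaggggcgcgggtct
Rxra (chr2:27709172-27709291, plus strand): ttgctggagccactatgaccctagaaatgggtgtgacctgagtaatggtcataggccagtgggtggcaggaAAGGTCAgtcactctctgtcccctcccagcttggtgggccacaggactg

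The search covered 300 bases around each start, 250 before it and 50 after it, in 13 windows of 9 of the 10 genes. The NRF1 core was in the Esrra window, beginning at position -34 from the start, and in the Ppara window, where matches on both strands overlap. The Tfam window held the GABP core at position -47, and the second Rxra window held the ERR core at position -49. Over all 32851 RefSeq windows outside chromosome 18, 2.71% held the NRF1 core, 3.89% the GABP core, 4.72% the ERR core and 1.79% the cAMP response element. The windows of Ppargc1a, Nrf1, Gabpa, Ppard and Pparg held none of these exact letters, which says nothing of whether the factors bind there. The Ppargc1a window was 50.8% G and C over the 120 bases shown, against 71.7% for Esrra, 77.5% for Nrf1 and 75.8% for Tfam.

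The libraries held 11440169 to 15074909 reads counted in genes. Against their label, the dim libraries were rich in leukocyte transcripts and poor in endothelial ones. The 13 endothelial markers summed to 248 to 1555 CPM (a gene's counts scaled to a common library total) in the 6 dim libraries and to 12113 to 20227 CPM in the bright ones, while the 9 leukocyte markers listed in both tables summed to 3967 to 10461 CPM in dim and to 37.2 to 80.7 CPM in bright. Proximal tubule markers (16 genes) moved with genotype. Their sum ran from 2053 to 9692 CPM in WT-dim, from 39.7 to 636 in AS-dim, from 701 to 4097 in WT-bright and from 142 to 967 in AS-bright, and none of the 16 was at 0 in every library of a group. The library of WT-dim mouse 1 stood highest. Col4a5 itself was at 37.1 to 73.9 CPM in WT-dim and at 1.36 to 3.6 CPM in AS-dim, a log2 fold change of -4.69 ± 0.45 (SE, adjusted p = 0.00982). In bright cells its libraries overlapped, at 4.92 to 9.996 CPM in WT and 3.13 to 6.79 CPM in AS (log2 fold change -0.60 ± 0.47, adjusted p = 0.495), so the gene checks the genotype labels only for the dim libraries. These are bulk libraries, in which fewer cells of a type and less RNA per cell cannot be told apart.

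All 10 regulators had reads in every group, at levels that differed widely. Under 3 reads, taken as the limit of detection, were Ppara in AS-dim mice 1 and 3 and in AS-bright mouse 1, and Ppargc1a in AS-bright mouse 1. Levels between genes are given as CPM per kilobase of exon (Gencode M21, GRCm38). Gabpa was the highest in every group, at 14.5 ± 3.92 CPM per kb in WT-dim, 12.8 ± 1.42 in AS-dim, 18.98 ± 2.74 in WT-bright and 16.1 ± 6.28 in AS-bright (mean ± SD, n = 3). Rxra was the second in both bright groups, at 13.1 ± 1.92 CPM per kb in WT and 15.0 ± 3.47 in AS, and Tfam the second in both dim groups, at 9.5 ± 1.70 in WT and 7.81 ± 2.37 in AS. The low end was the same in all 4 groups: Ppard, Ppargc1a and Ppara were the last 3 in that order. Ppargc1a was at 1.55 ± 0.67 CPM per kb in WT-dim and 0.130 ± 0.123 in AS-bright, and Ppara at 0.670 ± 0.628 and 0.0700 ± 0.0774 in the same groups. Many neighbours in this order did not differ beyond their spread. In WT-dim, only Nrf1 and Ppard, the seventh and the eighth, had libraries that did not overlap. In AS-dim, Gabpa stood clear of Tfam, Rxra of Nrf1, Nrf1 of Esrra, Esrra of Ppargc1b, Ppard of Ppargc1a and Ppargc1a of Ppara. In WT-bright the libraries of Gabpa and Rxra, of Rxra and Tfam and of Ppargc1a and Ppara did not overlap, and in AS-bright those of Rxra and Pparg, of Tfam and Nrf1 and of Ppard and Ppargc1a.

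**Figure D1:**
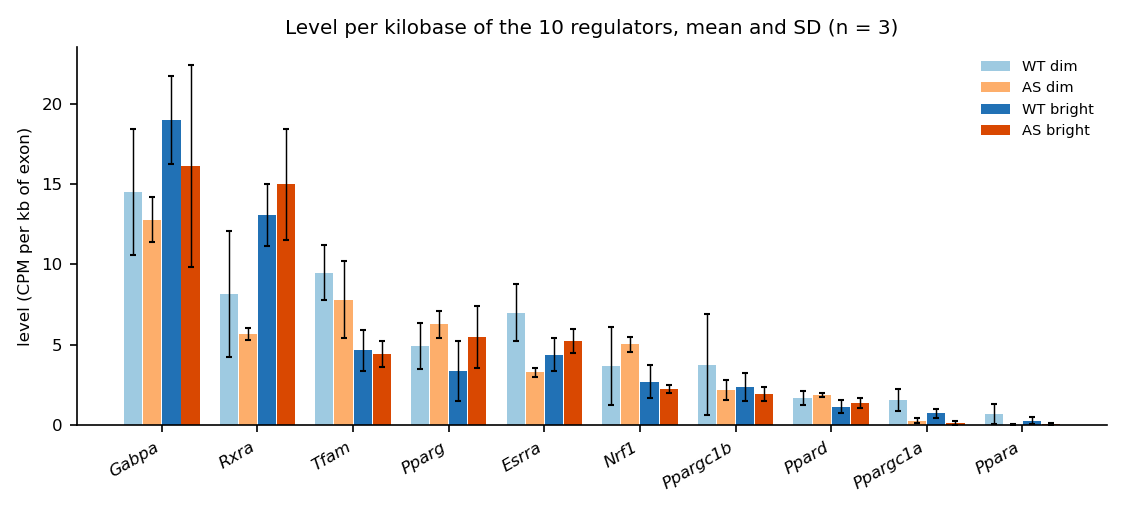
Level of each regulator in CPM per kilobase of exon (vertical axis), as the mean of 3 libraries for WT-dim, AS-dim, WT-bright and AS-bright, with bars of 1 SD whose lower end stops at 0. Genes are ordered by their mean over the 12 libraries, from Gabpa (15.6 CPM per kb) and Rxra (10.5) down to Ppargc1a (0.674) and Ppara (0.261).

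Within the PGC-1 pair, Ppargc1b gave the larger part of the summed length-scaled level in 11 of the 12 libraries. Ppargc1a made up 64.5%, 40.0% and 11.5% of the sum in the 3 WT-dim libraries and 17.1%, 12.6% and 4.71% in AS-dim. In the bright cells it made up 30.9%, 14.3% and 27.9% in WT and 0.510%, 15.2% and 5.22% in AS. The share thus spread widely within WT-dim alone. Among the PPARs, Pparg gave the largest part throughout, at a mean share of 66.9% in WT-dim, 76.6% in AS-dim, 66.4% in WT-bright and 78.0% in AS-bright. Ppard followed at 20.8% to 25.7%, and Ppara gave 9.998% in WT-dim, 7.88% in WT-bright, 1.23% in AS-bright and 0.390% in AS-dim.

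Comparing AS with WT in dim cells asks what the mutation changes in that fraction. Ppargc1a was the only regulator called, and it fell 5.54-fold in AS. Its WT-dim libraries stood at 9.74, 14.9 and 6.07 CPM, and its AS-dim libraries at 2.26, 2.74 and 0.638 CPM. The groups did not overlap, and the AS library of mouse 3 was the lowest, at 8 reads. The log2 fold change was -2.47 ± 0.60 (SE) with an adjusted p of 0.0430, by the quasi-likelihood test of edgeR, adjusted after Benjamini and Hochberg over all genes tested. In the whole table, 1263 of 14637 genes tested were called (8.63%), 2.21% higher and 6.42% lower in AS, so that 1 call among 10 regulators is close to the share of all genes. That total rests on single libraries: no gene was called without AS-dim mouse 1 and 1 gene without AS-dim mouse 3.

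The call of Ppargc1a in dim cells was near the threshold. Of 16 alternatives it held in 5, with adjusted p from 0.00195 to 0.893 and a log2 fold change from -2.84 to -1.70. Among the fits without 1 library it held only without WT-dim mouse 3 (adjusted p = 0.0276) and ranged up to 0.154 without AS-dim mouse 3. With the level of proximal tubule markers as a covariate, under which no gene of the table was called, the log2 fold change of Ppargc1a was -1.70 ± 1.22 (adjusted p = 0.893). Tubule markers moved with genotype in these libraries: 7 of the 15 tested fell and all 15 were lower in AS (median log2 fold change -4.15). Markers of the loop, distal tubule and collecting duct fell as well, all 6 that were tested (median -3.23). Their sum was 721, 1795 and 1110 CPM in WT-dim and 148, 271 and 42.4 CPM in AS-dim, highest in WT-dim mouse 2, in which Ppargc1a was also highest. Among other cell types, 9 of 12 endothelial markers and 2 of 6 podocyte markers fell, and 3 of 14 leukocyte markers rose. None of 4 mesangial and mural markers tested was called (3 at an unadjusted p under 0.05, all negative), and the sum of the 5 listed in both tables was 118 to 199 CPM in WT-dim and 58.9 to 104 CPM in AS-dim, without overlap. Between the fractions 2 of 5 rose in bright in WT and 5 of 5 in AS. With the leukocyte level as a covariate Ppargc1a was at -2.49 ± 1.02 (adjusted p = 0.335), and again no gene of the table was called. The part of the other markers in the Ppargc1a difference was not tested.

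Ppargc1b was not called in dim cells. Its WT-dim libraries were spread over 3.25, 13.5 and 28.3 CPM, and its AS-dim libraries stood at 6.64, 11.4 and 7.82 CPM. All AS values lay inside the WT range. The log2 fold change of -0.84 ± 0.66 gave an adjusted p of 0.471.

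Esrra and Ppara came close to the threshold in dim cells without passing it. Esrra read 35.1, 21.9 and 35.2 CPM in WT-dim and 13.1, 15.7 and 14.4 CPM in AS-dim. These groups did not overlap either, and the 3 AS libraries lay close together. The log2 fold change was -1.13 ± 0.30 with an adjusted p of 0.0564, and Esrra was called without WT-dim mouse 2 (adjusted p = 0.0430), with DESeq2 (adjusted p = 0.00575) and with all 12 libraries in one fit (adjusted p = 0.0241). With tubule markers as a covariate it was at -0.80 ± 0.65 (adjusted p = 0.918). Ppara, which rests on few reads, had 61, 15 and 13 reads in WT-dim, or 5.35, 1.27 and 1.10 CPM. In AS-dim it had 0, 4 and 0 reads. The WT library of mouse 1, the one richest in tubule markers, held most of the WT reads. The fitted log2 fold change of -4.53 ± 1.29 (adjusted p = 0.0518) rests in AS on the 4 reads of mouse 2, because 2 AS libraries were at 0. Ppara was called with DESeq2 (adjusted p = 0.0222), with the likelihood ratio test, with all 12 libraries in one fit and without WT-dim mouse 3 (adjusted p = 0.0315). Tubule markers as a covariate brought it to -0.16 ± 1.69 (adjusted p = 0.995).

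Nrf1, Gabpa, Tfam, Ppard, Pparg and Rxra were not called in dim cells between the genotypes, with log2 fold changes from -0.56 for Rxra to 0.42 for Nrf1 and adjusted p from 0.359 to 0.858. Nrf1 was uneven among the WT-dim libraries, at 24.4, 66.6 and 22.9 CPM, while in AS-dim it read 55.2, 53.9 and 46.4 CPM. Rxra was high in 1 WT-dim library, at 68.8 CPM in mouse 1 against 28.5 and 36.5 in the other two. Counted without adjustment, 3 of 10 regulators had a p under 0.05, beside 26.3% of all genes tested. The libraries of the groups did not overlap for 3 of 10 (Ppargc1a, Esrra and Ppara), beside 31.9% of the tested genes that both tables list.

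**Figure D2:**
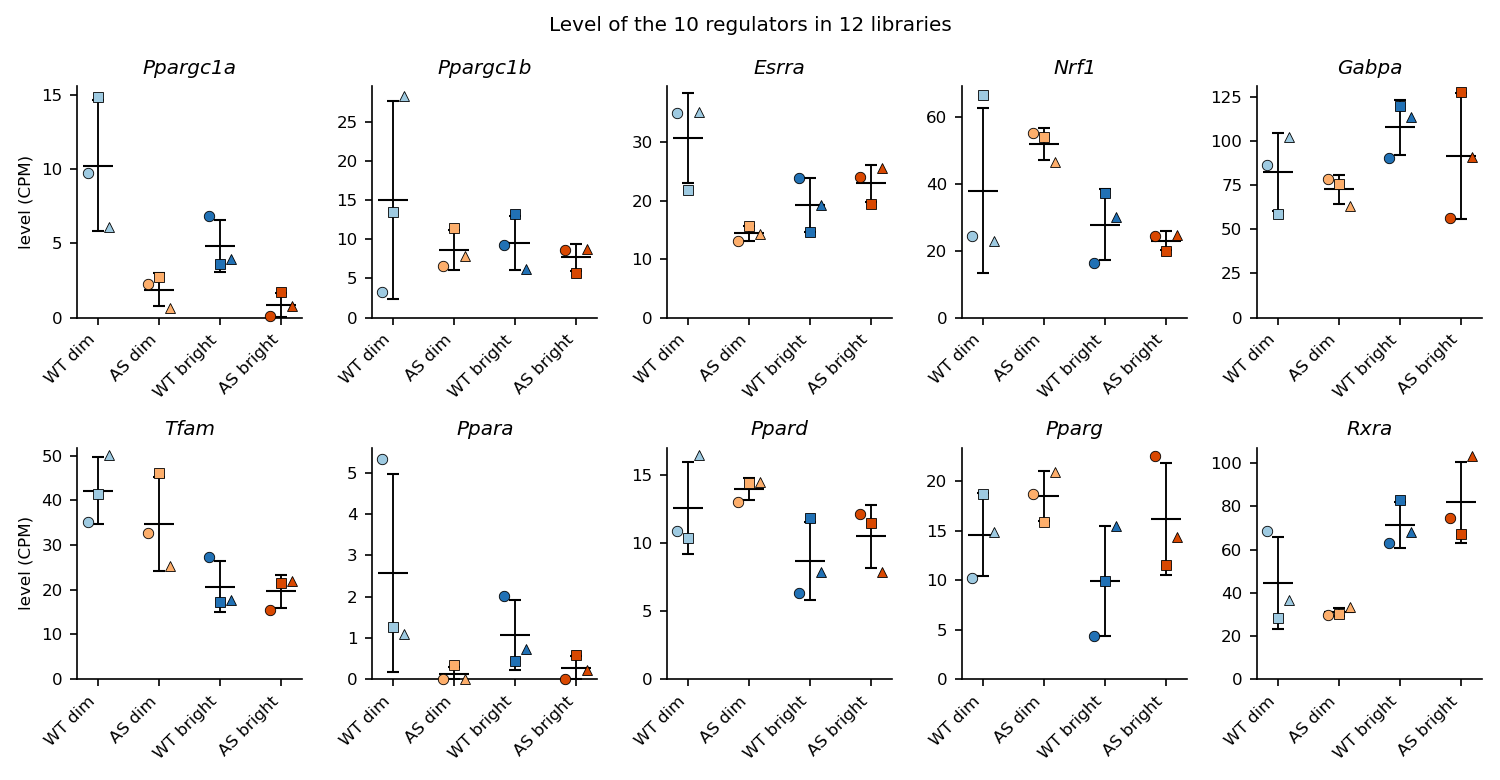
Level of each regulator in CPM (vertical axes, each from 0) in the 12 libraries. Circles, squares and triangles are mice 1, 2 and 3 of a genotype, the horizontal bar is the mean and the whiskers 1 SD, stopped at 0. The AS points of Ppargc1a lie below all WT points within each fraction, and the AS-dim points of Esrra (13.1 to 15.7 CPM) below those of the other dim group.

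Comparing AS with WT in bright cells, the endothelial-rich fraction, edgeR called none of the 9 regulators tested. Over the table it called 65 of 14396 genes (0.452%), 0.188% higher and 0.264% lower, and none without WT-bright mouse 3, AS-bright mouse 1 or AS-bright mouse 3. DESeq2 and edgeR's likelihood ratio test each called 1 regulator. Unadjusted, 1 of 9 had a p under 0.05, beside 21.8% of all genes.

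That regulator was again Ppargc1a. It stood at 6.83, 3.63 and 3.95 CPM in WT-bright and at 0.0729, 1.70 and 0.801 CPM in AS-bright. The groups did not overlap, as held for 1 of the 9 regulators and 24.8% of the tested genes that both tables list. The AS value of mouse 1 was a single read. Its log2 fold change was -2.52 ± 0.66, which is 5.72-fold lower in AS, with an unadjusted p of 0.00302 and an adjusted p of 0.0811. Adjusted p was 0.0253 with DESeq2 and 0.00484 with the likelihood ratio test. With tubule markers as a covariate it was 0.708, at a log2 fold change of -1.31 ± 0.76. All 16 proximal tubule markers were lower in AS-bright (median log2 fold change -2.49), although none of them was called (14 at an unadjusted p under 0.05). The 7 markers of the loop, distal tubule and collecting duct were lower too (median -2.92), with none called and 5 at an unadjusted p under 0.05. Their sum was 381 to 544 CPM in WT-bright and 23.4 to 233 CPM in AS-bright. The sum of the 6 podocyte markers was higher in AS without overlap, at 94.5 to 161 CPM in WT-bright and 222 to 396 CPM in AS-bright, with none called and all 6 at an unadjusted p under 0.05. None of 13 endothelial markers was called, with 6 at an unadjusted p under 0.05, all higher in AS. None of 6 mesangial and mural markers was called either, with 1 higher and 3 lower at that p. The part of the distal, podocyte, endothelial, mesangial and mural markers in the Ppargc1a difference was not tested. Leukocyte sums, low in both groups, were 37.2 to 48.7 CPM in WT-bright and 49.9 to 80.7 CPM in AS-bright, and with the leukocyte level as a covariate Ppargc1a was at -3.45 ± 0.85 (adjusted p = 0.0413).

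The log2 fold changes of Ppargc1a were -2.47 in dim and -2.52 in bright cells. The difference between them on the log2 scale, tested in a fit of all 12 libraries, was -0.00436 with an SE of 0.97, so a difference of more than 1 log2 unit in either direction could not be told from none. Both fractions came from the same mice, so the pair of comparisons does not give independent evidence.

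The other 8 regulators tested in bright cells had adjusted p of 0.433 or more. Pparg had the largest positive value, a log2 fold change of 0.64 ± 0.44 (adjusted p = 0.433), from 4.37, 9.91 and 15.5 CPM in WT to 22.5, 11.6 and 14.4 CPM in AS, and these ranges overlapped. Esrra was at 23.9, 14.7 and 19.3 CPM in WT-bright and at 24.0, 19.4 and 25.6 CPM in AS-bright (log2 fold change 0.17 ± 0.29, adjusted p = 0.778). Ppargc1b, Nrf1, Gabpa, Tfam, Ppard and Rxra lay between -0.37 and 0.22 with adjusted p of 0.573 or more. Ppara did not pass the filter on low counts in this comparison: it had 32, 6 and 11 reads in WT-bright and 0, 9 and 3 in AS-bright.

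Whether the genotype difference itself depended on the fraction was tested as an interaction. None of the 10 regulators was called, against 569 of 15084 genes (3.77%), 2.96% with the higher AS-over-WT value in bright and 0.815% with the lower, around a median of 0.13 over all genes. That fit does not pair the fractions by mouse. With the mouse as a block 877 genes and none of the regulators were called. Unadjusted, 1 of 10 regulators had a p under 0.05, beside 18.5% of all genes. That gene was Esrra, with a difference (bright minus dim) of 1.35 ± 0.40 on the log2 scale (adjusted p = 0.0817). It was called without WT-dim mouse 2 (adjusted p = 0.0442) and with DESeq2 (adjusted p = 0.0311). The remaining differences ran from -0.72 ± 0.56 for Nrf1 to 2.59 ± 2.01 for Ppara.

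**Figure D3:**
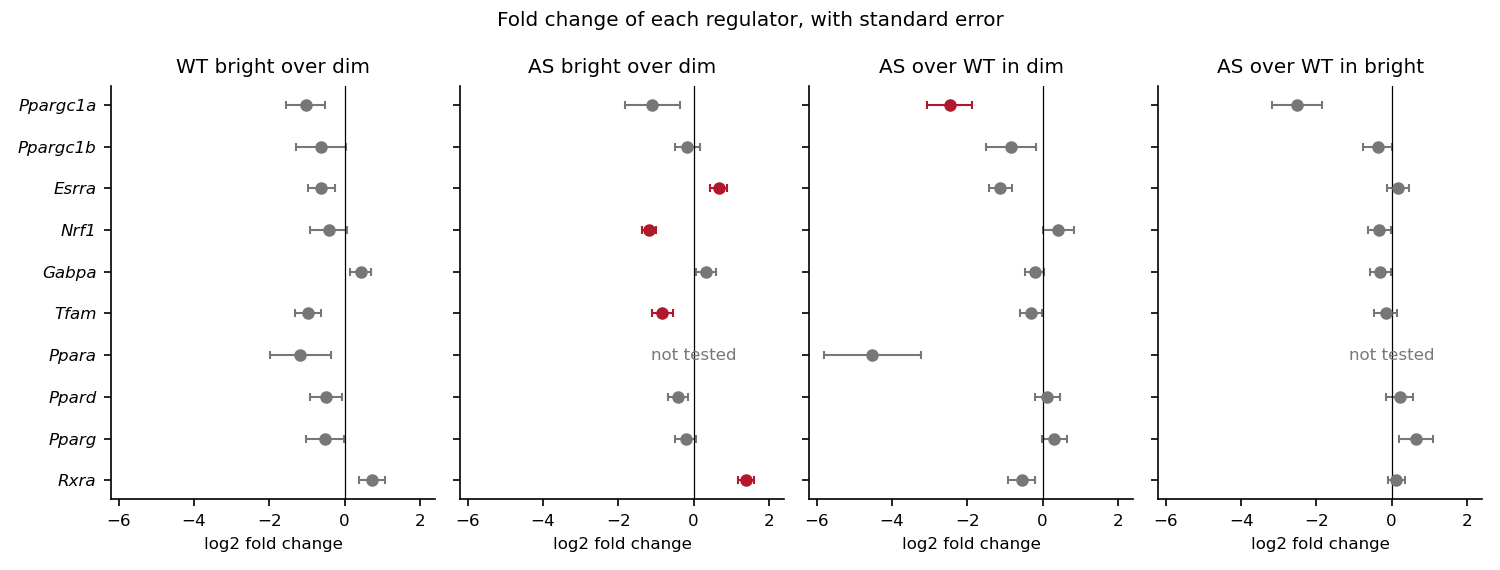
Log2 fold change of each regulator (horizontal axes) in the 4 comparisons, with bars of 1 standard error. Red points passed an adjusted p of 0.05: Ppargc1a for AS over WT in dim cells, and Nrf1, Tfam, Esrra and Rxra for bright over dim in AS. Ppara is marked as not tested in the 2 comparisons in which it failed the filter.

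Bright over dim compares the endothelial-rich fraction with the leukocyte-rich one of the same mice. The main fit does not use that pairing. With the mouse as a block, 4444 genes and 0 regulators were called in WT and 7755 genes and 3 regulators in AS. In WT mice no regulator of 10 was called by edgeR, although 3604 of 14247 genes were (25.3%, with 13.8% higher and 11.5% lower in bright). DESeq2 called 1, and 1 had an unadjusted p under 0.05, beside 37.4% of all genes. Libraries did not overlap for 1 of 10, beside 41.8% of all genes. In all 3 counts that gene was Tfam. It read 35.1, 41.3 and 50.1 CPM in WT-dim and 27.3, 17.2 and 17.6 CPM in WT-bright, a log2 fold change of -0.97 ± 0.34 (adjusted p = 0.0643). DESeq2 gave it an adjusted p of 0.0206, and leaving out WT-bright mouse 1 gave 0.0426.

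None of the other WT values of bright over dim passed the test. Rxra had a log2 fold change of 0.73 ± 0.35 (adjusted p = 0.157), from the dim values given above to 62.9, 83.1 and 68.1 CPM in WT-bright, and without WT-dim mouse 1 it was 1.17 ± 0.31 and called (adjusted p = 0.0262). Ppargc1a was at -1.03 ± 0.52 (adjusted p = 0.184), Ppara at -1.17 ± 0.81, Esrra at -0.61 ± 0.36 and Gabpa at 0.43 ± 0.27. Ppargc1b, Pparg, Ppard and Nrf1 lay between -0.63 and -0.42, and the median of all genes was -0.04.

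In AS mice 4 of 9 regulators tested were called between bright and dim cells, 2 higher and 2 lower. In the same fit 7743 of 14052 genes were called (55.1%, with 28.6% higher and 26.5% lower in bright), so a count of 4 in 9 is not above the background. Unadjusted, 4 of 9 had a p under 0.05, beside 60.1%. Libraries did not overlap for 5 of 9, beside 62.2%. Leukocyte markers parted these groups for all 9 genes measured in both tables (each fell in bright, median log2 fold change -7.24), and their part in the differences could not be read from a fit with them: a model with the leukocyte level as a covariate called no gene at all in this comparison.

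Rxra, the shared partner of the PPARs, rose 2.61-fold in AS-bright. It stood at 29.8, 30.01 and 33.4 CPM in AS-dim and at 74.8, 67.4 and 103 CPM in AS-bright. The dim libraries lay within a narrow range and every bright one was above them. This was a log2 fold change of 1.39 ± 0.21 (adjusted p = 0.000311), and the call held without each library in turn.

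Nrf1 fell 2.27-fold. It stood at 55.2, 53.9 and 46.4 CPM in AS-dim and at 24.4, 19.8 and 24.8 CPM in AS-bright, with no overlap. On the log2 scale the change was -1.18 ± 0.20 (adjusted p = 0.000581), and it too was called without each library in turn. In WT, where mouse 2 was high in both fractions (66.6 CPM in dim and 37.1 in bright), the same comparison gave -0.42 ± 0.49 (adjusted p = 0.562).

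Tfam fell 1.77-fold in AS-bright. Its libraries read 32.7, 46.1 and 25.3 CPM in AS-dim and 15.4, 21.6 and 21.9 CPM in AS-bright, close together at the nearest values. Its log2 fold change of -0.83 ± 0.27 (adjusted p = 0.0263) was near that in WT, and the call held in 2 of the 6 fits without 1 library: it was lost without AS-dim mouse 1 or 2 and without AS-bright mouse 1 or 3, with adjusted p up to 0.104.

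Esrra rose 1.59-fold in AS-bright, from the AS-dim values near 14 CPM given above. Its log2 fold change was 0.66 ± 0.23 (adjusted p = 0.0321). With the mouse as a block the adjusted p was 0.0565, and of the fits without 1 library only that without AS-bright mouse 2 kept the call. The WT value had the opposite sign and was not called, and the difference between genotypes is the interaction given above. Gabpa, Ppard, Pparg, Ppargc1a and Ppargc1b were not called in AS, with log2 fold changes from -1.09 ± 0.72 for Ppargc1a to 0.33 ± 0.28 for Gabpa. Ppard fell outside the calls although its libraries did not overlap, at 13.1, 14.4 and 14.5 CPM in AS-dim and 12.2, 11.5 and 7.86 CPM in AS-bright (log2 fold change -0.42 ± 0.27, adjusted p = 0.210).

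The wider pathway was read in 5 lists: partners and modulators of PGC-1 and the PPARs (27 of 28 genes in the tables), the machinery of mitochondrial DNA (18 of 18), protein genes of the mitochondrial genome (13 of 13 in the dim table and 12 in the bright one), textbook PPAR targets (27 of 34) and targets of ERR alpha and the nuclear respiratory factors (28 of 28).

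In dim cells, where 6.42% of all genes fell and 2.21% rose in AS, calls in the target lists were mostly lower. Of 28 ERR and NRF targets tested, 8 fell and none rose. All 28 values were negative and their median log2 fold change was -0.80, while that of all genes was -0.02. The leading ones were Cox6c (-1.59 ± 0.24, adjusted p = 0.0197) and Cox7a2 (-1.58 ± 0.27, adjusted p = 0.0213), subunits of cytochrome oxidase, and Atp5o (-1.28 ± 0.24, adjusted p = 0.0236) of ATP synthase. Cox6c stood at 253 ± 61.8 CPM in WT-dim and 86.3 ± 13.2 CPM in AS-dim (SD, n = 3). Of 26 PPAR targets tested, 7 fell and 1 rose, with a median of -1.21. Lpl, lipoprotein lipase, fell by 2.39 ± 0.22 on the log2 scale (adjusted p = 0.00982), from 932 ± 155 to 182 ± 34.0 CPM. Acaa1b and Ehhadh, enzymes of peroxisomal fatty acid oxidation, fell by 4.18 ± 0.69 and 4.47 ± 0.80 (adjusted p = 0.0179 and 0.0197). In AS-dim they lay around the limit of detection, at 0.0707 to 0.479 and 0.0707 to 0.663 CPM. Slc25a20, the mitochondrial carnitine carrier, was the one that rose (0.85 ± 0.20, adjusted p = 0.0380).

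Of 12 mitochondrially encoded genes, 6 fell in AS-dim and the other 6 were negative too, with a median of -1.88. The leading ones were mt-Co3 (-2.50 ± 0.59, adjusted p = 0.0403), mt-Nd2 (-2.02 ± 0.49, adjusted p = 0.0424) and mt-Nd1 (-1.92 ± 0.47, adjusted p = 0.0442). The other lists held calls at or near the 8.63% of all genes. Of 27 partners and modulators, 2 fell, with a list median of 0.14. They were the orphan receptor gene Esrrb (-4.96 ± 0.90, adjusted p = 0.0197) and Prkaa2, a catalytic subunit of AMP-activated kinase (-2.99 ± 0.75, adjusted p = 0.0462). Esrrb lay at 0 to 0.663 CPM in AS-dim, around the limit of detection. Of 18 genes of the mitochondrial DNA machinery only Dna2, a nuclease and helicase, was called, and it rose (1.24 ± 0.23, adjusted p = 0.0244), with a median of -0.14. With proximal tubule markers as a covariate none of these lists held a call, and the number of calls depended on single libraries: leaving out 1 library at a time, it ran from 0 to 13 for PPAR targets, 0 to 12 for ERR and NRF targets and 0 to 9 for mitochondrially encoded genes, and it was 0 in the fit without AS-dim mouse 1, in which no gene was called.

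In bright cells no gene of the 5 lists was called between AS and WT by edgeR's quasi-likelihood test with all libraries. Without WT-bright mouse 2 the same test called 3 PPAR targets and 3 ERR and NRF targets, without AS-bright mouse 2 it called 2 mitochondrially encoded genes, 1 PPAR target and 1 machinery gene, and without WT-bright mouse 1 it called 1 gene each of the PPAR targets, partners and machinery. DESeq2, which called 1078 of 14396 genes, called 4 PPAR targets, 3 mitochondrially encoded genes, 2 ERR and NRF targets, 1 partner and 1 gene of the DNA machinery. Unadjusted, 9 of 27 PPAR targets, 8 of 28 ERR and NRF targets, 5 of 10 mitochondrially encoded genes, 4 of 27 partners and 2 of 18 machinery genes had a p under 0.05, beside 21.8% of all genes. All 10 mitochondrially encoded genes were negative (median -1.27), and the medians of the other lists lay between -0.34 and -0.12, with -0.03 for all genes.

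In the bright over dim comparison of WT, all 12 mitochondrially encoded genes fell, with a median of -1.95, beside 11.5% of all genes. The calls were 5 without WT-bright mouse 3, 9 to 12 without any other library, and 0 with the leukocyte covariate. They were led by mt-Co3 (-2.53 ± 0.36, adjusted p = 0.000940), mt-Nd5 (-2.12 ± 0.38, adjusted p = 0.00334) and mt-Co1 (-1.87 ± 0.36, adjusted p = 0.00485), whose mean went from 13380 to 3503 CPM. In AS, none of 10 was called (4 at an unadjusted p under 0.05, 2 by DESeq2) although all were negative (median -1.21), and 8 were called with the mouse as a block and all 10 with tubule markers as a covariate. Without AS-bright mouse 2, 7 of them were called. Of the nuclear ERR and NRF targets 1 of 28 fell in WT, the peroxiredoxin Prdx5 (-1.56 ± 0.46, adjusted p = 0.0343), and with the mouse as a block 8 fell. Leaving out 1 library, the list held 5 calls without WT-bright mouse 1, 2 without WT-dim mouse 2 and 0 in each of the other 4 fits. In AS 5 rose and 4 fell of 28. Neither the WT nor the AS count is above the share of all genes called, 25.3% in WT and 55.1% in AS. The AS calls were led by Gpx1, a glutathione peroxidase (-1.35 ± 0.19, adjusted p = 0.000180), Prdx5 (-1.73 ± 0.29, adjusted p = 0.000692) and Slc25a4, the ADP/ATP carrier (1.24 ± 0.22, adjusted p = 0.000961).

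PPAR targets moved in both directions between the fractions. Of all genes, 13.8% were higher and 11.5% lower in bright in WT, and 28.6% and 26.5% in AS. In WT 2 of 27 rose in bright and 4 fell, Ucp2, Plin2, Cd36 and Acot2 (median -0.63). In AS 12 of 24 rose, above the share of all genes, and 6 fell, near that share (median 0.74, against 0.02 for all genes). With the leukocyte covariate no gene was called in either genotype. Fabp4, a fatty acid-binding protein of capillary endothelium and fat, rose by 2.38 ± 0.29 in WT and 3.38 ± 0.22 in AS (adjusted p = 0.000402 and 7.92e-07). Lpl rose by 1.66 ± 0.27 and 3.13 ± 0.20 (adjusted p = 0.00192 and 6.73e-07), and the uncoupling protein gene Ucp2 fell by 2.36 ± 0.31 and 1.87 ± 0.18 (adjusted p = 0.000603 and 1.26e-05). Among partners and modulators 2 rose and 2 fell of 26 in WT (median -0.23; 4 and 4 with the mouse as a block). In AS 5 rose, Prkab1, Kat2a, Prkaa2, Prkaa1 and Ncoa3, and 9 fell (median -0.37). The counts of partners and modulators in the main fits are not above the 25.3% and 55.1% of all genes called in WT and AS. The regulatory subunits of AMP-activated kinase went opposite ways. Prkab1 rose by 2.01 ± 0.28 in WT and 2.20 ± 0.24 in AS (adjusted p = 0.000890 and 3.58e-05), whereas Prkab2 fell by 2.4 ± 0.42 and 1.63 ± 0.19 (adjusted p = 0.00299 and 4.64e-05). Ncoa2, a nuclear receptor coactivator, fell by 1.73 ± 0.19 in AS (adjusted p = 3.12e-05). In WT its relative Ncoa3 rose by 0.80 ± 0.23 (adjusted p = 0.0311) and Esrrb fell by 2.22 ± 0.64 (adjusted p = 0.0313).

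Of 18 genes of the mitochondrial DNA machinery 2 rose and 2 fell in WT (median -0.05) and 1 rose and 4 fell in AS (median -0.14), again not above those shares. Dna2 fell by 3.34 ± 0.54 in WT and by 5.24 ± 0.29 in AS (adjusted p = 0.00189 and 2.30e-07), and Primpol, a primase-polymerase, by 2.07 ± 0.58 and 1.42 ± 0.40 (adjusted p = 0.0297 and 0.0122). Polg and Polg2, the subunits of the mitochondrial DNA polymerase, rose in WT (1.58 ± 0.32 and 1.12 ± 0.36, adjusted p = 0.00611 and 0.0481). In AS Mgme1, a mitochondrial exonuclease, rose (1.17 ± 0.25, adjusted p = 0.00254), and Mterf1a and Ssbp1, a termination factor and the single-strand binding protein, fell (-1.76 ± 0.46 and -0.87 ± 0.30, adjusted p = 0.00883 and 0.0309).

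**Figure D4:**
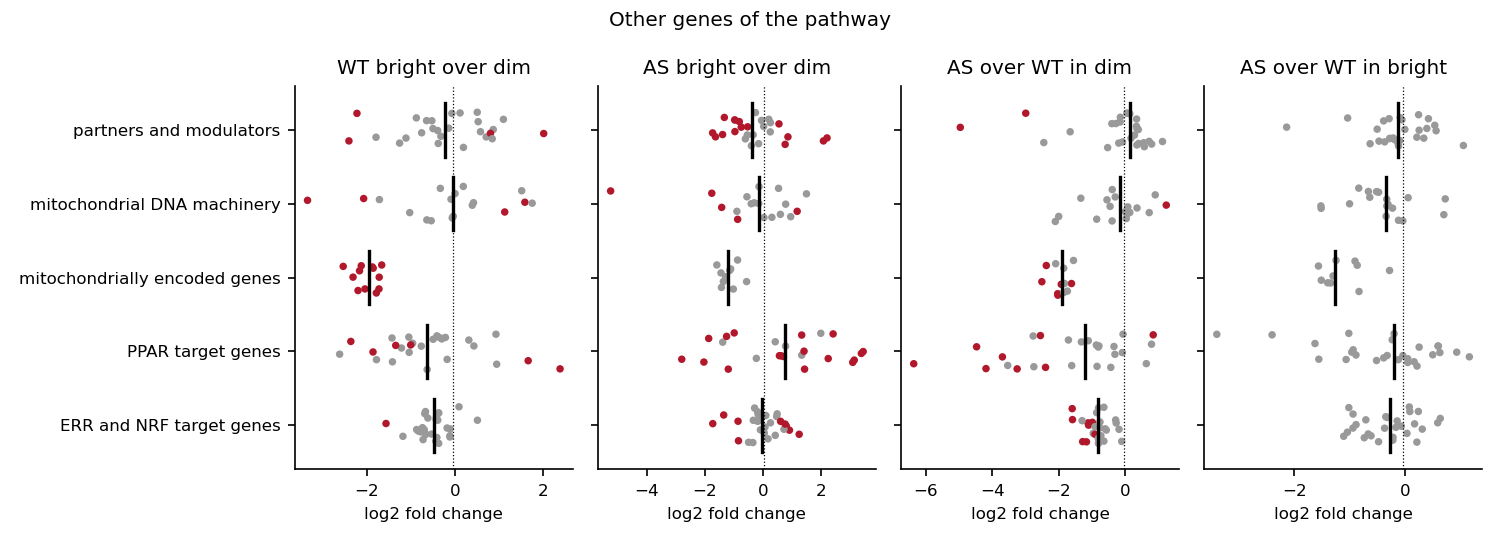
Log2 fold change (horizontal axes, different ranges) of every tested gene of the 5 pathway lists in the 4 comparisons. Each point is a gene (red: adjusted p under 0.05), the short black line is the list's median and the dotted line the median of all genes. The mitochondrially encoded genes lie left of 0 in all 4 panels, with medians of -1.95, -1.21, -1.88 and -1.27.

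The genes whose levels ran most like each regulator over the 12 libraries were named by the correlation of log2 CPM (Pearson's r, a description over libraries that differ in fraction, genotype and cell makeup). For Ppargc1a they were Epcam (r = 0.963), an epithelial adhesion molecule, Fabp3 (0.950), a fatty acid-binding protein, and 2610528J11Rik (0.948). For Ppara they were the solute carrier gene Slc16a12 (0.984), the steroid dehydrogenase gene Hsd3b2 (0.977) and the homeobox gene Emx2 (0.977). Rxra ran with Sgpp1 (0.973), a sphingosine-1-phosphate phosphatase, Cinp (0.964) and Paqr4 (0.963), Esrra with Hmgn1 (0.963), H6pd (0.951) and Yif1a (0.939), and Tfam with Whrn (0.963), Wdr3 (0.934) and Katnbl1 (0.914). The highest values were 0.941 for Nrf1 (Fryl, then Sec16a at 0.928 and Gm17137 at 0.927), 0.917 for Ppard (Pabpc1, then Cmip at 0.911 and Irs2 at 0.908), 0.902 for Pparg (Smndc1, then Acaca at 0.889 and Eef1g at 0.889), 0.879 for Ppargc1b (Nrip2, then Gps2 at 0.865 and Hebp2 at 0.862) and 0.863 for Gabpa (Fam199x, then Lysmd3 at 0.858 and Gm43914 at 0.822).

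**Figure D5:**
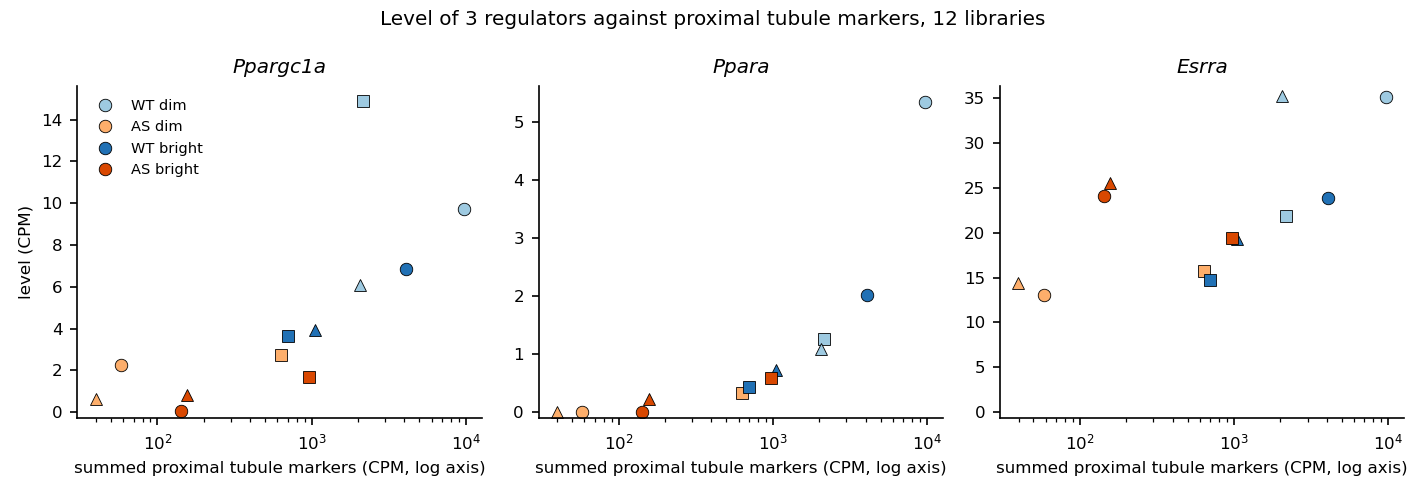
Level of Ppargc1a, Ppara and Esrra in CPM (vertical axes) against the summed level of 16 proximal tubule markers in CPM (horizontal axes, log scale), 1 point per library, with circles, squares and triangles for mice 1, 2 and 3 of a genotype. The WT-dim and WT-bright libraries of mouse 1 have the largest marker sums (9692 and 4097 CPM) and the highest Ppara levels (5.35 and 2.02 CPM), while Ppargc1a is highest in WT-dim mouse 2 (14.9 CPM).

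The genes stand where their neighbours can matter for the counts. In Gencode M21 (GRCm38), Ppargc1a lies on chromosome 5 from 51454250 to 51567726 on the minus strand and overlaps 4 provisional gene models. Esrra (chromosome 19, 6910977 to 6921813, minus strand) overlaps the protein-coding gene Trmt112 on the other strand, and Gabpa (chromosome 16, 84834925 to 84863779, plus strand) overlaps Atp5j likewise. Pparg (chromosome 6, 115360951 to 115490399) has an antisense gene, Gm44079, and Nrf1 (chromosome 6, 30047988 to 30153458, plus strand) overlaps Gm25580. The strand setting of the counting is not given in the sources used here, so reads of these partners cannot be told apart with certainty. No annotated gene overlaps Tfam (chromosome 10, 71225464 to 71238280, minus strand), Ppara (chromosome 15, 85734983 to 85802819, plus strand), Ppard (chromosome 17, 28232700 to 28301474, plus strand) or Rxra (chromosome 2, 27676440 to 27762957, plus strand).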

How the data were processed

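The authors aligned paired-end reads of stranded poly-A libraries with STAR 2.6.0c to GRCm38.p5 (Gencode M16) and deposited raw counts per gene, 1 table for the 6 dim and 1 for the 6 bright libraries, after removing rows. These counts, from 4 groups of 3 libraries, are the only values used. The deposited tables also hold RPKM values, fold changes and p-values of the authors' comparisons, which were not used: the length column behind the RPKM adds up exons over transcripts and is 1.06 to 3.63 times the exon union of these 10 genes.

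ERCC spike-in rows (0.0286% to 0.282% of counts) were left out. Each comparison was fitted over all genes with edgeR 4.0.16 in R 4.3.3 (TMM scaling, filterByExpr, glmQLFit and glmQLFTest), Benjamini-Hochberg adjustment and a threshold of 0.05. Alternatives were DESeq2 1.42.0, edgeR's likelihood ratio test, other scalings and filters, marker covariates, the replicate block and leaving out each library. Levels are CPM on 1 TMM scale over the 12 libraries. Standard errors come from the coefficient and the test statistic. The fits were also run on simulated counts with known changes, and the outcome is not given here. Depth bounds the precision of low genes: 3 reads, taken as the limit of detection, are 0.199 to 0.262 CPM before TMM, and this covers counting error only.

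The members and lists were chosen with earlier results of these data known. Named are the 10 regulators, Col4a5, of each list and comparison the 3 called genes with the smallest adjusted p and those behind a count of 5 or fewer, and for each regulator the 3 most correlated genes. Fractions are paired by mouse in the labels, which tie the libraries to animals, but the main fits do not use the pairing. Same-mouse deviations correlated at 0.102 or more in WT and 0.0796 or more in AS, beside means of -0.0984 and -0.105 between different mice. Bright mouse 1 and dim mouse 3 of AS, different animals, reached 0.189. Deviations from a mean of 3 tend to be negative between different mice, so the pairing rests on the labels. AS and WT mice share only a number. The values of 1 list gene are not reported here.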

Additional observations from a re-analysis of the deposited data

Results flagged for a closer look

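Whether the AS-over-WT difference was the same in bright and dim cells was tested as an interaction over all 12 libraries, and the 3 genes given here passed an adjusted p of 0.05 by edgeR's quasi-likelihood test. For Col4a5 the log2 fold change in bright exceeded that in dim by 4.14 ± 0.66 (SE, adjusted p = 0.00515). The difference for the PPAR targets Ehhadh and Lpl was 4.18 ± 1.04 (adjusted p = 0.0341) and 1.53 ± 0.32 (adjusted p = 0.0195). Ehhadh kept its call in 4 of the 12 fits without 1 library (adjusted p from 0.0197 to 0.122) and lost it with the edgeR version 3 fit (0.0552) and with library sizes alone (0.053). Lpl lost its call without AS-dim mouse 3 (0.0511), without AS-bright mouse 1 (0.0588) and with the likelihood ratio test (0.062). Ehhadh stood at 6.93 ± 4.00 CPM in WT-dim and 0.324 ± 0.305 CPM in AS-dim, and at 3.19 ± 1.51 and 2.66 ± 1.72 CPM in the bright groups (SD, n = 3). The median over all genes tested was 0.13. Of the cell type markers, 10 of 13 endothelial (median 2.57) and 5 of 6 podocyte markers (median 2.77) were called, all positive. No tubule, mesangial, mural or leukocyte marker was called. The part of the endothelial and podocyte markers in the differences of the 3 genes was not tested. Of the PPAR targets 2 of 27 were called, beside 3.77% of all genes. Unadjusted, 13 of 27 PPAR targets and 8 of 28 ERR and NRF targets had a p under 0.05, all positive, beside 18.5% of all genes. None of 27 partners, 18 genes of the mitochondrial DNA machinery or 12 mitochondrially encoded genes was called in this test (5, 5 and 2 at an unadjusted p under 0.05, and 1, 2 and 0 by DESeq2).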

How the results depend on the processing

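Over all alternatives, 731 refitted values of single regulators kept their direction and side of the threshold, 16 newly passed it, 25 lost the call and 46 changed sign. Among the other named genes 621 values held, 1 newly passed, 148 lost the call and 13 changed sign. For bright over dim, the leukocyte covariate called 0 genes in WT and in AS and 0 regulators in AS, while DESeq2 and the fit of all 12 libraries each called 1 regulator in WT. For AS over WT in bright cells the genes called were 1078 with DESeq2, 897 with the likelihood ratio test, 39 without the count filter, 675 with the leukocyte covariate, 139 in the fit of all 12 libraries, 0 with the tubule covariate and 0 with the edgeR version 3 fit (chosen after seeing the data), and DESeq2, the likelihood ratio test and the leukocyte covariate each called 1 regulator. In dim cells they were 2213 with DESeq2, 2106 with all 12 libraries, 582 with version 3 and 0 with either covariate. The regulators called there were 3 with DESeq2, 3 with all 12 libraries, 2 with the likelihood ratio test and 0 with library sizes alone, no count filter, either covariate or version 3. The interaction gave 1184 genes and 1 regulator with DESeq2 and 1092 genes with the likelihood ratio test.

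Pairing by mouse number (the replicate block) gave 4444 genes for WT bright over dim and 7755 for AS. Beside the counts given with the results, it called 2 PPAR targets higher and 6 lower in WT and 14 and 7 in AS, and 3 and 3 genes of the mitochondrial DNA machinery in WT and 2 and 4 in AS. Between genotypes, where mice share only a number (mean correlation -0.0367 in bright and -0.0505 in dim), the block gave 16 genes in bright cells and 494 genes and 0 regulators in dim cells. The interaction was blocked by the mouse itself, which ties the bright and the dim library of the same animal, and gave 877 genes. Leaving out each library gave 2534 to 3435 genes and 0 to 1 regulators for WT bright over dim, 6651 to 7490 and 2 to 4 for AS, 0 to 281 genes and 0 regulators for AS over WT in bright, 0 to 1825 and 0 to 2 in dim, and 252 to 857 and 0 to 1 for the interaction.

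Log2 values that changed sign with the setting leukocyte covariate were, for WT bright over dim Col4a5 1.499, Esrra 1.26, Esrrb 1.36, Lpl -2.36, Polg2 -1.67, Ppard 2.69, Ppargc1b 16.52, Primpol 6.75, Prkab2 2.65, Rxra -3.41, Tfam 4.27 and mt-Co3 0.20, for AS bright over dim Esrra -1.56, Gpx1 1.74, Mgme1 -1.46, Ppard 2.75, Ppargc1a 7.13, Prdx5 5.16, Primpol 4.43, Rxra -2.10 and Ssbp1 3.13, for AS over WT in bright cells Ppard -0.0013, for AS over WT in dim cells Ppard -0.10 and Rxra 0.30. Log2 values that changed sign with the setting proximal tubule covariate were, for AS over WT in bright cells Col4a5 0.34, Gabpa 0.037, Pparg -0.085, Rxra -0.20 and Tfam 0.26, for AS over WT in dim cells Ppard -0.029, Pparg -0.34, Rxra 0.095 and Tfam 0.14. Log2 values that changed sign with the setting library sizes alone were, for the interaction Ppard -0.022. Log2 values that changed sign with the setting every gene with a count were, for the interaction Ppargc1a 0.0036. Leaving out 1 library at a time, the sign changed within these ranges: for WT bright over dim Nrf1 -0.67 to 0.28 and Ppargc1b -1.11 to 0.23, for AS bright over dim Gabpa -0.039 to 0.59 and Ppargc1b -0.33 to 0.057, for AS over WT in bright cells Esrra -0.0068 to 0.39, Rxra -0.089 to 0.26 and Tfam -0.29 to 0.14, for AS over WT in dim cells Ppard -0.043 to 0.36, for the interaction Gabpa -0.50 to 0.21, Ppard -0.12 to 0.41, Ppargc1a -1.14 to 0.52, Ppargc1b -0.33 to 0.98 and Tfam -0.0048 to 0.46.

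The cause of these changes was not tested. Depth limits Ppara and Ppargc1a most, with 0 to 61 and 1 to 176 reads a library.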
